A study of Mus musculus with 8 samples.

Results

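Sites that carried both CTCF and the cohesin subunit Smc3 in 2 lines of mouse embryonic stem cells are described here. They are peaks of the wild-type CTCF list on the 19 numbered autosomes that overlapped, by at least 1 bp, a CTCF peak and an Smc3 peak of the tagged C59 line and an Smc3 peak of the wild type. In all, 23974 of the 96324 autosomal wild-type CTCF peaks met this rule, which is 24.9% (exact 95% interval 24.6 to 25.2), out of 98759 peaks in the list. The sites were chosen by the presence of a peak in each of the 4 lists, so peak strength in those lists is given as a description.

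C59 is a clone homozygous for FLAG and Halo tags on CTCF and for SNAPf and V5 tags on Rad21, another cohesin subunit, at their own loci. The wild type (WT) is its untagged counterpart, and both are JM8.N4 embryonic stem cells kept without feeders on gelatin in serum and LIF. Chromatin immunoprecipitation and sequencing (ChIP-seq) gave 1 library for each line and antibody, so there is no spread between replicates and no test between lines. The antibody labels name Smc3, while the extraction protocol names Rad21 for the cohesin precipitation, and the antibody label was followed. The lists hold no read totals, and intervals cover counting error only. Absence of a peak means only that no enrichment passed the authors' threshold there.

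CTCF, a protein with many zinc fingers, binds an asymmetric DNA motif and marks insulators and the borders of chromatin domains. Cohesin is a ring complex that extrudes loops of chromatin, and in mammalian cells it is known to halt at CTCF, so that loop anchors carry both proteins. The orientation of the CTCF motif is known to set which side of the site faces the loop.

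The DNA under the shared sites is shown first where sequence could be read. The 5 stretches below are the shared sites whose worst rank over the 4 lists was best among those that hold a match to a core pattern of the CTCF motif in the 100 bases printed, wholly before a gene's start site. The pattern reads CCA, 2 open bases, AG, 2 open bases and GGC. The capitals mark the match, 44 bases stand on each side, and each stretch reads 5′ to 3′ along the motif. The stretches are centred on the match and not on a summit, the base of highest pileup. At Adprhl2 the WT CTCF summit lay 68.5 bp from the middle of the match, outside the stretch. That distance was 20.5 bp at Ndufa6, 12.5 bp at Rab32, 17.5 bp at Mgat5b and 6.5 bp at Snx18. Positions are in mm10, with sequence from the RefSeq promoter table of GRCm38.p6. Adprhl2 is at chr4:126321704-126321803 (minus strand), Ndufa6 at chr15:82354386-82354485 (plus strand), Rab32 at chr10:10558236-10558335 (minus strand), Mgat5b at chr11:116918749-116918848 (plus strand) and Snx18 at chr13:113618658-113618757 (minus strand).
Adprhl2: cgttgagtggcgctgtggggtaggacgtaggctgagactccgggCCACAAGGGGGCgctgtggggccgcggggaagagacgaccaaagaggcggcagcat
Ndufa6: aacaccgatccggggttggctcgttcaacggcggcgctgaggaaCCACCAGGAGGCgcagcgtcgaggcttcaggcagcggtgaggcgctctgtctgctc
Rab32: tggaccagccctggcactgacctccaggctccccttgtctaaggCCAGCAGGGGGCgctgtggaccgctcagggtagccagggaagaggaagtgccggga
Mgat5b: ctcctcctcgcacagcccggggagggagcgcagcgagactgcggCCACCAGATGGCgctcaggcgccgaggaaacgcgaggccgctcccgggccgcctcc
Snx18: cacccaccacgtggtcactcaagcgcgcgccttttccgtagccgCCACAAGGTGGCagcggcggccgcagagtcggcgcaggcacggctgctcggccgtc

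For contrast, 3 promoters are shown where CTCF stood in both lines with no Smc3 peak in either. They are the strongest by WT CTCF fold alone among those with 1 match before a start site, so they were picked by another measure than the 5 above. Ttyh1 is at chr7:4119389-4119488 (plus strand), Zzz3 at chr3:152395861-152395960 (plus strand) and Dgkz at chr2:91963702-91963801 (minus strand).
Ttyh1: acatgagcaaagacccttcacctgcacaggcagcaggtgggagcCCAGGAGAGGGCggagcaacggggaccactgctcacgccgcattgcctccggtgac
Zzz3: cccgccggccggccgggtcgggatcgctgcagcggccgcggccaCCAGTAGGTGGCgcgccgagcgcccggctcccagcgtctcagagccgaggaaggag
Dgkz: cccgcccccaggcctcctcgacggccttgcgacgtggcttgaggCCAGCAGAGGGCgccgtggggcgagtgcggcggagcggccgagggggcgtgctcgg

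The 5 shared promoters carried strong CTCF peaks in both lines. Fold enrichment is the authors' value for each peak, its pileup over the local background, and describes strength within a list. At Adprhl2, an ADP-ribose hydrolase gene, the CTCF fold was 74.4 in C59 and 44.4 in WT, and the Smc3 fold was 14.1 in C59 and 15.0 in WT. At Rab32, which encodes a small GTPase of organelle traffic, the CTCF fold was 41.5 in C59 and 40.0 in WT, and the Smc3 fold was 11.4 in C59 and 15.7 in WT. Ndufa6 (a subunit of respiratory complex I), Mgat5b (a glycosyltransferase) and Snx18 (a sorting nexin) had CTCF folds of 36.3 to 48.0 in C59 and 37.4 to 47.0 in WT. The promoters without Smc3 had CTCF folds of 40.8 in C59 and 41.3 in WT at Ttyh1, 33.1 in C59 and 40.7 in WT at Zzz3, and 26.65 in C59 and 40.0 in WT at Dgkz. Both sets were picked for a motif match and strong CTCF, so these values only describe them.

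In promoter sequence, the motif was more frequent near the summits of shared sites than near those of sites with Smc3 in neither line. Against sites with Smc3 in WT only, the difference depended on the pattern and on CTCF strength. A summit is the base of highest pileup in a peak. Both strands were searched within 100 bp of the WT CTCF summit, in sites whose whole window lay in promoter sequence. The motif was found at 74 of 264 shared sites (28.0%, 22.7 to 33.9), at 34 of 220 sites where Smc3 was seen in WT only (15.5%, 10.9 to 20.9) and at 23 of 318 sites with Smc3 in neither line (7.23%, 4.64 to 10.7). The middle 201 bases of all 31396 promoter windows held it in 1.80%. Within the 3 strongest deciles of WT CTCF fold the shares were 28.2% of 248 shared sites (22.7 to 34.3), 18.1% of 144 sites with Smc3 in WT only (12.1 to 25.3) and 7.69% of 104 sites with Smc3 in neither (3.38 to 14.6). In those deciles the intervals of shared sites and of sites with Smc3 in neither line lay apart, whereas those of shared sites and of sites with Smc3 in WT only overlapped. Strength was not matched within the pool, since decile 10 held the most shared sites and decile 8 the most sites with Smc3 in neither line. With a looser pattern, which reads CC, 3 open bases, AG, 2 open bases and GGC and also takes every match of the first, the shares were 49.6% of shared sites (43.4 to 55.8), 46.4% (39.6 to 53.2) with Smc3 in WT only and 23.0% (18.4 to 28.0) with Smc3 in neither. The looser pattern stood in 6.18% of all windows, and with it shared sites and sites with Smc3 in WT only were not told apart. In the 3 strongest deciles it stood at 50.8% of shared sites, 53.5% with Smc3 in WT only and 28.8% with Smc3 in neither. The RefSeq promoter windows run from 250 bases before to 50 after a start site, chromosome 18 was not used, and these shares speak for promoters only.

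The open letters of the motif differed between shared sites and promoters without CTCF. Sites with Smc3 in WT only or in neither line were not compared, so the letters are not shown to be particular to shared sites. Positions are counted from 1 at the 5′ end of the motif. At the 115 shared sites with a single match, position 4 was C in 55.7% (46.1 to 64.9) and G in 38.3% (29.4 to 47.8), and position 8 was G in 55.7% (46.1 to 64.9) and A in 43.5% (34.3 to 53.0). Among 296 promoter matches over 1 kb from any WT CTCF summit, position 4 was C in 17.9% (13.7 to 22.8) and G in 50.0% (44.2 to 55.8). In those distant matches position 8 was G in 22.3% (17.7 to 27.5) and A in 30.7% (25.5 to 36.3). Position 8 was C at 0 of the 115 shared sites (0 to 3.16%), against 32.1% (26.8 to 37.7) of those distant matches. Most promoter matches had no CTCF summit close by. Of 722 matches, 16.2% lay within 100 bp of a shared summit, 9.83% of a summit with Smc3 in WT only, 65 of the 722 near one with Smc3 in neither line, and 62.0% near no WT CTCF summit.

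Promoter motifs lay more often on the strand of the gene at shared sites, and about equally so at sites with Smc3 in WT only. At shared sites this held for 76 of 112 matches (67.9%, 58.4 to 76.4). The share was 45 of 66 (68.2%, 55.6 to 79.1) with Smc3 in WT only and 31 of 60 (51.7%, 38.4 to 64.8) with Smc3 in neither line, and it was 149 of 292 (51.0%, 45.1 to 56.9) for matches far from CTCF. The intervals of shared sites and of sites with Smc3 in neither line overlap. Read along the motif, the Smc3 summit lay on the 3′ side of the CTCF summit at 65 of 114 shared sites in C59 (57.0%, 47.4 to 66.3) and at 71 of 114 in WT (62.3%, 52.7 to 71.2). The median shift towards the 3′ side was 6 bp in C59 (-3 to 17) and 15 bp in WT (6 to 20). At sites with Smc3 in WT only the WT share was 31 of 70 (44.3%, 32.4 to 56.7). The C59 interval includes an even split. The WT interval lies above it, but it includes it with a 200 bp window (58.9%, 49.7 to 67.6) and with the looser pattern described above (55.1%, 48.0 to 62.0).

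At shared sites genome-wide, the 4 summits stood close together. From the Smc3 summit to the CTCF summit of the same line the median distance was 24 bp in C59 (quartiles 11 and 44) and 24 bp in WT (quartiles 11 and 43). The pair lay within 50 bp of each other at 79.9% of sites in C59 (79.4 to 80.4) and at 81.1% in WT (80.6 to 81.6). The CTCF summits of the lines were closer still, with a median of 12 bp (quartiles 5 and 21) and 96.7% within 50 bp. The Smc3 summits of the lines differed by a median of 28 bp (quartiles 13 and 50). Over 200 bp separated Smc3 from CTCF at 2.24% of sites in C59 and at 1.97% in WT. The overlap that the rule asks for sets no summit distance, but it does bound it by the length of the peaks.

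**Figure D1:**
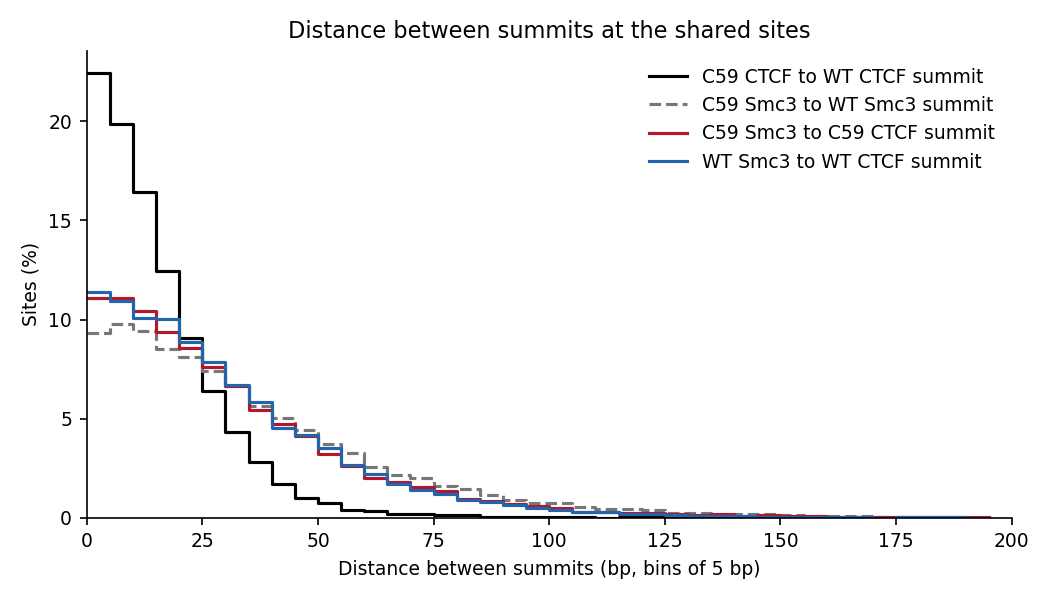
Share of the 23974 shared sites (y axis, %) by the distance between 2 summits (x axis, bp, bins of 5 bp), for 4 pairs of peak lists. CTCF summits of the lines (black, median 12 bp) lie closest, and the Smc3 to CTCF curves of C59 (red) and WT (blue) nearly coincide, each with a median of 24 bp.

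Sites with Smc3 in WT only had looser summits. Their WT Smc3 summit stood a median of 31 bp from CTCF, and their CTCF summits of the lines 17 bp apart, against 24 bp apart at sites with Smc3 in neither line. The WT Smc3 peaks of sites with Smc3 in WT only were also weaker, with a median fold of 4.43, against 8.40 at shared sites. Smc3 strength was not matched, so its part in these distances was not tested. Within deciles of WT CTCF fold the gap in the Smc3 to CTCF distance varied. In decile 10 the Smc3 to CTCF distance in WT was 23 bp at shared sites (95% interval of the median 22 to 23) and 25 bp with Smc3 in WT only (23 to 27). In decile 5 it was 34 bp (29 to 39) at shared sites and 39 bp (37 to 41) with Smc3 in WT only. In decile 6 the gap was wider, with 27 bp (25 to 29) at shared sites and 34 bp (32 to 35) with Smc3 in WT only. The intervals also lay apart in deciles 7 and 8, and they met or overlapped in deciles 5, 9 and 10. By place, the C59 median over shared sites was 25 bp at gene ends (24 to 27), 24 bp inside genes (23 to 25) and 24 bp outside genes (23 to 25).

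Shared sites were the strong end of the CTCF lists and nearly the whole of the C59 Smc3 list. The partner peaks taken, those of highest fold at each site, made up 94.4% of the autosomal C59 Smc3 peaks. They made up 51.7% of the autosomal WT Smc3 peaks and 29.8% of the autosomal C59 CTCF peaks. Overlapping peaks not taken as partners count among the other peaks below. More than 1 peak overlapped at 622 sites in the C59 Smc3 list, 1017 in the WT Smc3 list and 687 in the C59 CTCF list. The median CTCF fold was 27.6 in C59 (quartiles 20.6 and 35.4) and 26.02 in WT (quartiles 20.1 and 32.3), against 7.38 for the other C59 CTCF peaks and 6.84 for the other WT CTCF peaks. The median Smc3 fold was 5.80 in C59 and 8.40 in WT, against 4.22 for the other C59 Smc3 peaks and 4.24 for the other WT Smc3 peaks. Shared CTCF peaks were also longer, with medians of 795.5 bp in C59 and 884 bp in WT, against 445 bp for the other C59 CTCF peaks and 462 bp for the other WT CTCF peaks. In decile 1 of WT CTCF fold, 5 of 9633 peaks were shared sites, in decile 7 28.0%, in decile 8 54.0%, in decile 9 72.1% and in decile 10 83.0%. Since 4 peaks were required, this rise with strength describes the rule.

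**Figure D2:**
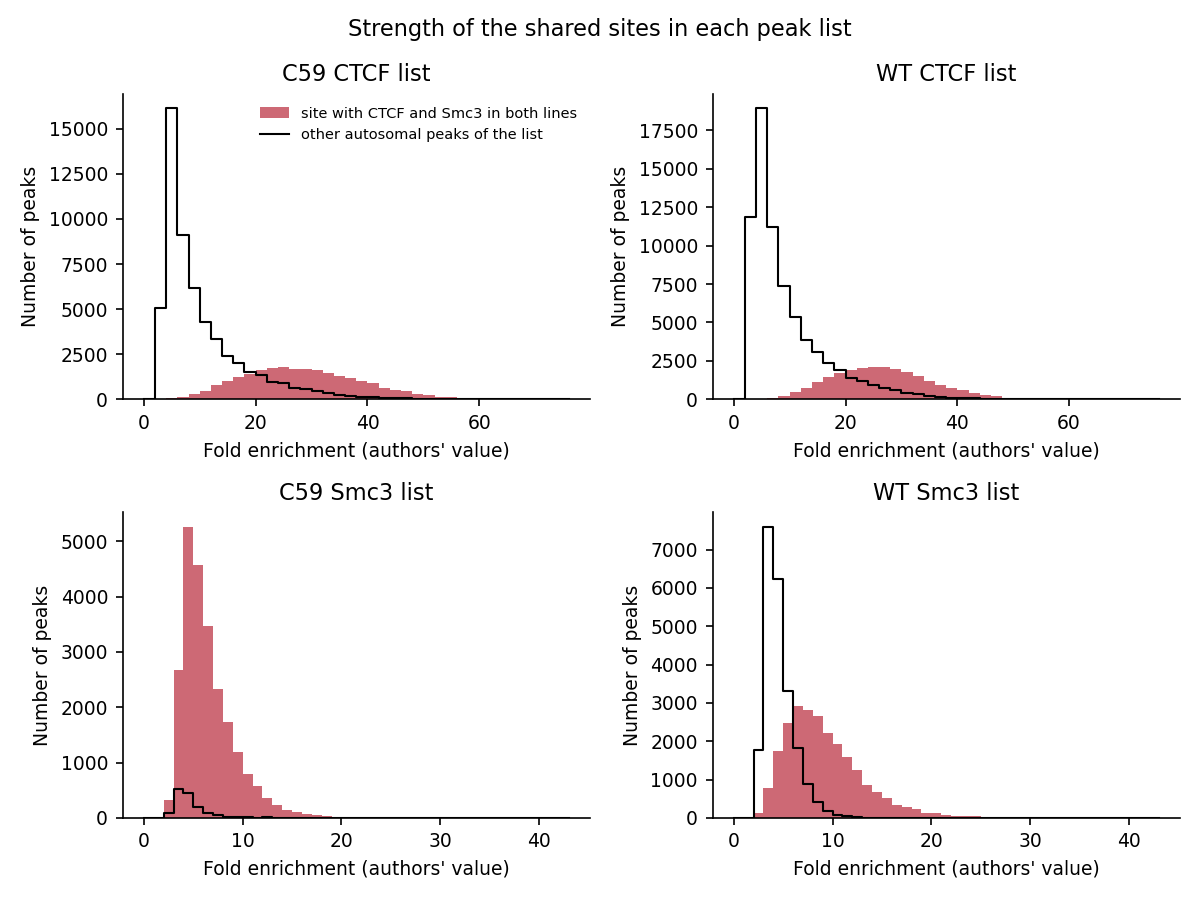
Number of peaks (y axis) by the authors' fold enrichment (x axis) in each list, with C59 on the left and WT on the right, for shared sites (red bars) and the other autosomal peaks of the list (black line). The black line includes peaks that overlap a shared site but were not taken as its partner. Shared sites fill the upper range of both CTCF lists (median 27.6 in C59 and 26.02 in WT) and nearly all of the C59 Smc3 list, while the WT Smc3 list also holds many weaker peaks outside them.

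Although an overlap of at least 50% of both peaks left only 9409 sites, few shared sites lay close to the edge of the 1 bp rule. Just inside it, the smallest overlap of a WT CTCF peak with any of its 3 partner peaks was 2 bp at a site by Epha4, followed by 22 bp near Taf12 and 29 bp inside Acsbg3. Just outside, among sites that lacked the C59 Smc3 overlap alone, the smallest gaps to a C59 Smc3 peak were 11 bp at Eme1, 25 bp at Vav2 and 42 bp at B3gnt2. Overlaps of 100 bp or less were found at 6 shared sites, and gaps under 100 bp at 8 sites outside. A WT CTCF peak had a single partner in the C59 Smc3 list at 23352 sites and more than 1 at 622. On chromosome X, outside the rule, 321 of 2396 WT CTCF peaks met the same overlaps (13.4%, 12.1 to 14.8).

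Pileup heights of the lines matched more closely than fold enrichments did. Over the 23974 sites Spearman's rho between C59 and WT was 0.91 for CTCF pileup and 0.79 for Smc3 pileup, but 0.62 for CTCF fold and 0.60 for Smc3 fold. Within a line, CTCF and Smc3 pileups gave 0.56 in C59 and 0.62 in WT. The local background that pileup and fold imply behaved the other way, with rho 0.88 between CTCF and Smc3 in C59 and 0.91 in WT, but 0.25 between lines for either protein. Within a line the background values themselves were close. On chromosome 2 the CTCF and Smc3 medians were 4.000 and 4.002 in C59, and 5.87 and 5.72 in WT. The control of each list is not given, and whether the lists of a line share 1 control was not tested. A site whose CTCF fold ranked higher in C59 than in WT among the shared sites tended to have a lower C59 background relative to WT (rho -0.83 for CTCF and -0.65 for Smc3). Against the C59 over WT ratio of pileup the same rank difference gave rho 0.22 for CTCF and 0.50 for Smc3. Background and pileup both enter the fold by its definition, so these values are coupled. The points share library and depth within each list, sites are not replicates, and the part of background in the difference between lines was not tested.

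**Figure D3:**
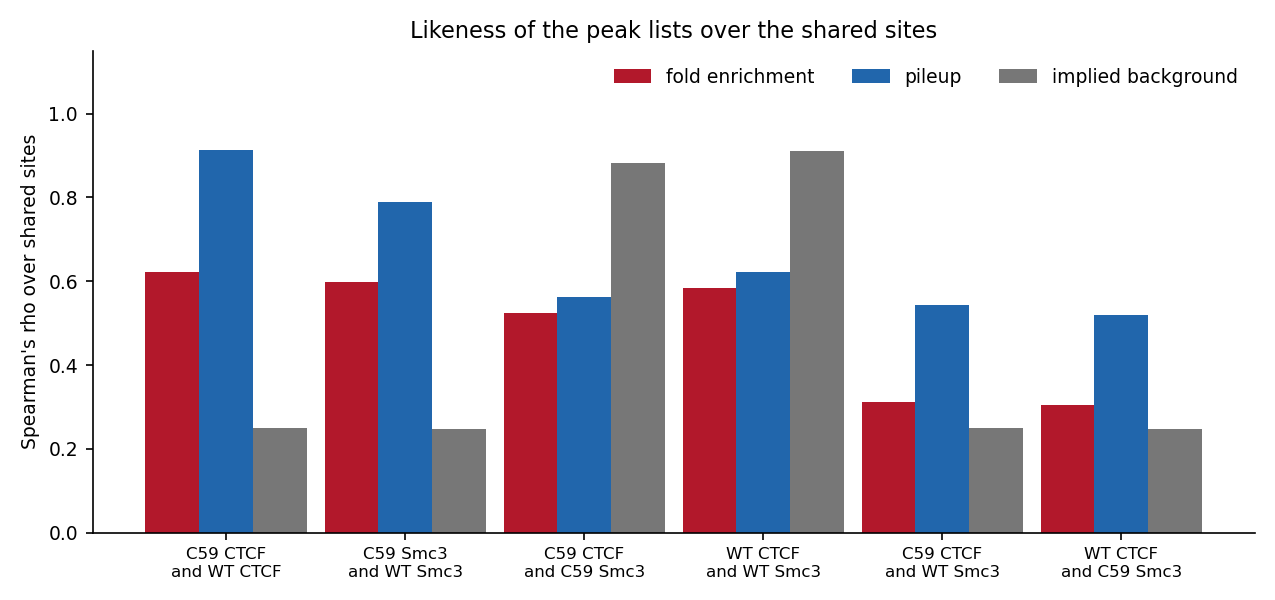
Spearman's rho over the 23974 shared sites (y axis) for each pair of peak lists (x axis), for fold enrichment (red), pileup (blue) and implied background (grey). Pileup is most alike for the same protein between lines (0.91 for CTCF and 0.79 for Smc3), and background for the same line between proteins (0.88 in C59 and 0.91 in WT).

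Chromosomes gave unequal shares. On chromosome 1, 31.4% of WT CTCF peaks were shared sites (30.2 to 32.6), on chromosome 11 27.2% (26.2 to 28.2) and on chromosome 8 21.6% (20.6 to 22.8). The other 16 autosomes ranged from 21.4% on chromosome 12 to 26.3% on chromosome 6. Chromosome 8 lay within that range. Chromosomes 1, 8 and 11 stood apart in the implied background at shared sites. On chromosome 1 the median CTCF background was 1.50 times that of the other autosomes in C59 and 1.04 times in WT, on chromosome 11 it was 1.56 times in C59 and 1.23 times in WT, and on chromosome 8 it was 1.00 times in C59 and 1.49 times in WT. The median CTCF background was 4.00 in C59 and 5.76 in WT on chromosome 12. On chromosome 6 it was 4.00 in C59 and 5.22 in WT, the lowest WT median of the autosomes. The part of background in the shares was not tested. Without these 3 chromosomes 24.4% of WT CTCF peaks were shared sites, and rho between lines was 0.95 for CTCF pileup and 0.63 for CTCF fold.

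**Figure D4:**
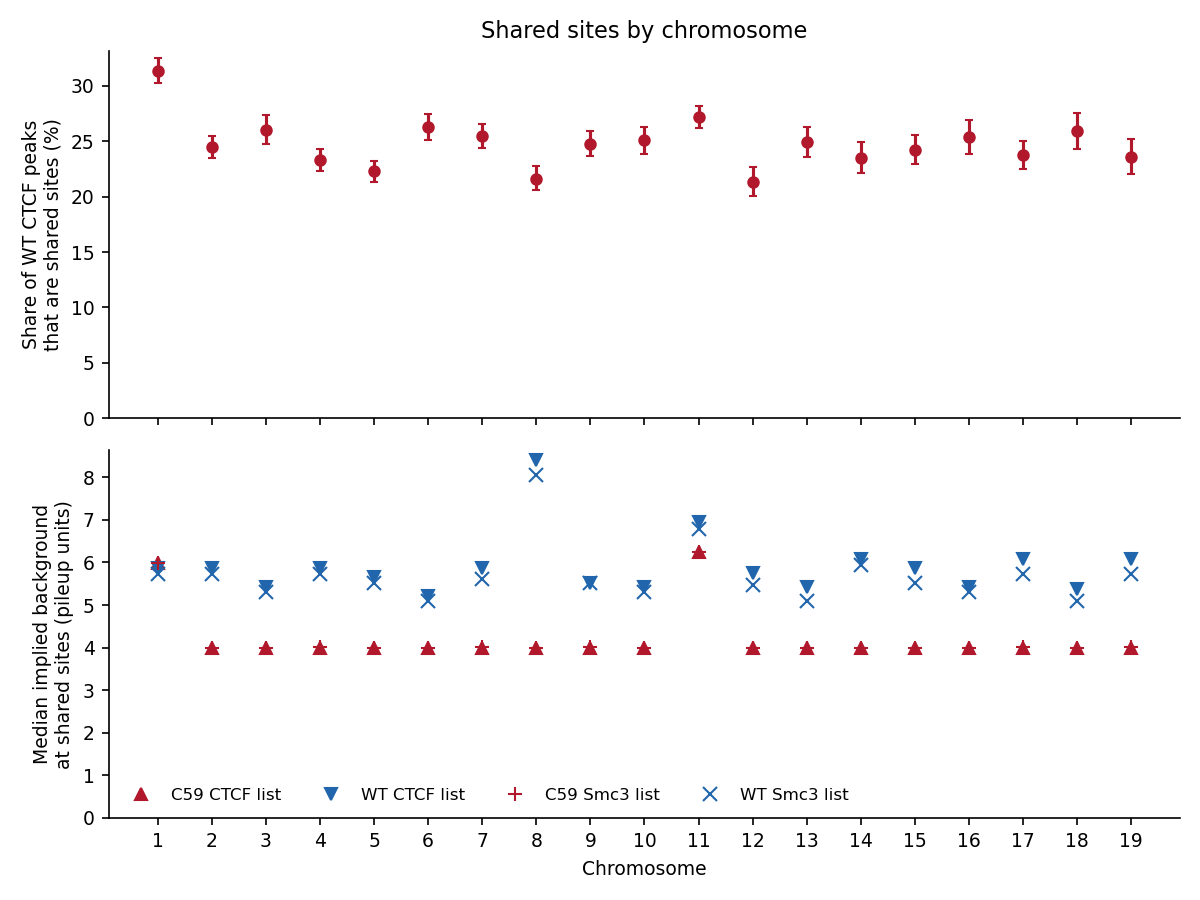
Top, share of WT CTCF peaks that are shared sites (y axis, %, bars are exact 95% intervals) on each autosome (x axis). Bottom, median implied background at those sites (y axis, pileup units) for C59 (red) and WT (blue), where chromosome 1 stands out in C59, chromosome 8 in WT and chromosome 11 in both.

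Shared sites lay away from genes more often than other CTCF sites of both lines. With protein-coding genes of the RefSeq table, 50.3% of shared summits were outside genes (49.7 to 51.0), against 41.1% (40.3 to 41.8) with Smc3 in WT only and 39.2% (38.6 to 39.7) with Smc3 in neither line. At a gene end, meaning within 1 kb of either end, lay 1947 shared sites (8.12%, 7.78 to 8.47), against 9.90% (9.47 to 10.4) with Smc3 in WT only and 9.73% (9.42 to 10.0) with Smc3 in neither. Inside genes were 41.6% of shared sites, 49.0% of sites with Smc3 in WT only and 51.1% of those with Smc3 in neither.

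At gene ends the gap widened from decile 5 to decile 10 of WT CTCF fold. In decile 10 of WT CTCF fold, 10.4% of 8000 shared sites lay at a gene end (9.72 to 11.1), against 19.6% (17.5 to 21.8) with Smc3 in WT only and 32.5% (26.8 to 38.7) with Smc3 in neither. Outside genes were 47.7% of shared sites in that decile, against 29.4% with Smc3 in WT only and 23.0% with Smc3 in neither. That gap was already wide in decile 5, with 62.9% of shared sites, 48.5% with Smc3 in WT only and 39.7% with Smc3 in neither. It did not widen steadily with strength. In decile 5 the gene-end shares were 7.14% (4.14 to 11.3) at shared sites, 7.51% (6.43 to 8.72) with Smc3 in WT only and 8.41% (7.76 to 9.10) with Smc3 in neither, with overlapping intervals. Ordered by pileup in place of fold, decile 10 gave 11.8% at shared sites, 23.4% with Smc3 in WT only and 36.9% with Smc3 in neither. Without chromosomes 1, 8 and 11 decile 10 by fold gave 10.2% at shared sites, 19.4% with Smc3 in WT only and 30.0% with Smc3 in neither. The order of the kinds was thus the same in each of these settings. In the 3 weakest deciles, described below, shared sites instead lay at gene ends most often.

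**Figure D5:**
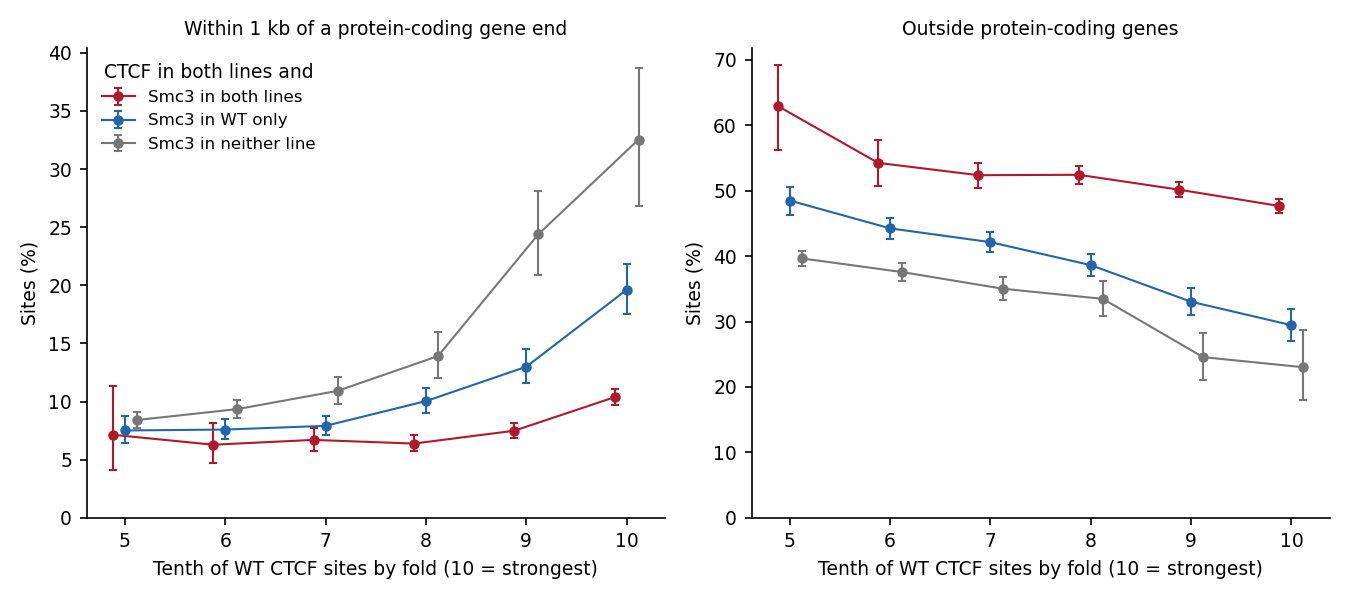
Share of sites (y axis, %, bars are exact 95% intervals) within 1 kb of a protein-coding gene end (left) and outside protein-coding genes (right), by decile of WT CTCF fold (x axis, deciles 5 to 10 only, 10 is the strongest). In decile 10, 10.4% of sites with Smc3 in both lines (red) lie at gene ends, against 19.6% with Smc3 in WT only (blue) and 32.5% with Smc3 in neither line (grey).

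RefSeq start sites, which carry strand, also lay least often at shared sites. A start site lay within 1 kb of 5.98% of shared summits (5.68 to 6.29), 7.74% of those with Smc3 in WT only (7.35 to 8.15) and 8.28% of those with Smc3 in neither line (7.99 to 8.58). In the 3 strongest deciles the shares were 6.28% of shared sites (5.95 to 6.63), 10.2% with Smc3 in WT only (9.46 to 11.0) and 16.6% with Smc3 in neither (15.0 to 18.3). Of the shared summits near a start, 62.7% lay upstream over all deciles (60.1 to 65.3), against 60.0% (57.3 to 62.6) with Smc3 in WT only and 47.2% (45.3 to 49.0) with Smc3 in neither line. In the 3 strongest deciles 64.4% lay upstream (61.6 to 67.0), against 66.2% (62.4 to 69.8) with Smc3 in WT only and 65.2% (59.8 to 70.3) with Smc3 in neither, with overlapping intervals. The promoters were less rich in G and C, with a median of 57.3% at shared sites, 61.3% with Smc3 in WT only and 62.7% with Smc3 in neither, against 53.0% over all promoters. The median number of CpG pairs per 300 bases was 15 at shared sites, 20 with Smc3 in WT only, 22 with Smc3 in neither and 7 over all promoters.

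Strong CTCF did not always come with an Smc3 peak. The 2 strongest CTCF sites of both lines without Smc3, by the weaker of their ranks, both lay at gene ends. At Exd1, a piRNA pathway gene, the CTCF fold was 67.05 in C59 and 57.4 in WT, and at Mapk1ip1l it was 54.4 in C59 and 46.9 in WT. Both folds exceeded the shared median of 27.6 in C59 and 26.02 in WT.

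Weak CTCF sites that were nevertheless shared were few and stood at genes more often. The 3 weakest deciles of WT CTCF fold held 36 shared sites, of which 13 lay at a gene end (36.1%, 20.8 to 53.8), against 13.4% (10.7 to 16.4) of 582 sites with Smc3 in WT only and 9.83% (9.28 to 10.4) of 11113 with Smc3 in neither. Their Smc3 and CTCF summits were far apart, with medians of 176.5 bp in C59 and 102 bp in WT. Examples, chosen after their values were seen as those of highest C59 Smc3 fold, were sites at the ends of H4c6, a replication-dependent histone H4 gene, of Ube2m, a NEDD8-conjugating enzyme, and of Stk11, the kinase LKB1. At H4c6 (chromosome 13, 23551483 to 23551839) the CTCF fold was 3.69 in C59 and 4.68 in WT and the Smc3 fold 12.7 in C59 and 4.85 in WT, with the Smc3 summit 567 bp from CTCF in C59 and 558 bp in WT. At Ube2m the distance was 616 bp in C59 and 407 bp in WT, and at Stk11 it was 934 bp in C59 and 102 bp in WT. The WT distance at Stk11 was thus the shortest of the 3 and its C59 distance the longest.

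The strongest shared sites were strong in every list. By the worst of their ranks over the lists, the first lay inside Chpf, a chondroitin polymerizing factor, on chromosome 1 (75476871 to 75478567). Its CTCF pileup was 367 in C59 and 360 in WT, and its Smc3 pileup 118 in C59 and 195 in WT, on scales that differ between lists. Its CTCF fold was 64.0 in C59 and 60.2 in WT, and its Smc3 fold 21.65 in C59 and 34.6 in WT. At the end of Abca14, a gene of the ABC transporter family, on chromosome 7 (120202729 to 120204483), the CTCF fold was 60.25 in C59 and 60.0 in WT and the Smc3 fold 28.3 in C59 and 36.8 in WT. Inside Osbpl5 on chromosome 7 (143706330 to 143707416), the CTCF fold was 61.3 in C59 and 61.3 in WT, and the Smc3 fold 18.95 in C59 and 41.5 in WT. The other 2 of the first 5 lay outside genes, nearest to Slc7a12 and Ppp5c. All 5 therefore stood above the median of shared sites in each list, as the rule that picked them requires.

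Where Smc3 rank differed most between lines, background often differed too. The lists differ in length, so ranks show no change by themselves. Nearest to Actbl2 on chromosome 13, the Smc3 fold was 2.98 in C59 and 14.5 in WT, with implied background of 11.0 in C59 and 4.45 in WT. Nearest to Ccne1, the cyclin E gene, it was 3.25 in C59 and 15.1 in WT, with background of 9.99 in C59 and 4.88 in WT. Inside Tia1, an RNA-binding protein gene on chromosome 6, the Smc3 fold was 7.45 in C59 and 2.98 in WT, with background of 4.00 in C59 and 16.1 in WT. In these 3 the line with the lower fold had the higher background. The same held at the other sites picked this way, nearest to Hspa8 and Ppp1r10 and inside Zmynd8. The sites were picked by rank of fold, and background enters the fold by definition, so the values are coupled. Nearest to Hspa8, a constitutive heat shock protein gene, the Smc3 fold was 10.8 in C59 and 2.66 in WT, background 5.00 in C59 and 7.65 in WT, and pileup 64.1 in C59 and 22 in WT. Its C59 Smc3 peak was 2656 bp long and its summit lay 890 bp from CTCF, against a length of 320 bp and a distance of 46 bp in WT. The part of background in these differences was not tested.

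Along the chromosomes, neighbouring shared sites stood a median of 41.3 kb apart (quartiles 13.3 and 104.5), against 8.83 kb between neighbouring WT CTCF peaks of any kind. Shared sites are a part of those peaks, so wider spacing follows from the choice. The median was 130.8 kb when overlaps had to cover 50% of both peaks and 67.5 kb with −log10 q of at least 10. Gaps under 10 kb made up 20.3%, and gaps under 100 kb 74.0%. The nearest WT CTCF peak of any kind stood a median of 4.61 kb from a shared site. That distance was 4.37 kb with Smc3 in WT only and 4.52 kb with Smc3 in neither line. After a shared site the next WT CTCF peak was again a shared site in 27.7% (27.2 to 28.3), against 24.6% (24.0 to 25.3) after a site with Smc3 in WT only and 23.6% (23.1 to 24.0) after one with Smc3 in neither line. The densest 1 Mb was on chromosome 11 (96674034 to 97666456), from Skap1 to Mllt6, with 56 shared sites of 182 WT CTCF peaks and 26 protein-coding genes. The longest stretch without a shared site ran 3852 kb on chromosome 14 (41128176 to 44980049), from near Sftpa1, a lung surfactant protein gene, to near Ptger2, a prostaglandin receptor gene. It held only 18 WT CTCF peaks, so CTCF peaks of any kind were sparse there, and 55 protein-coding genes. Most of these genes carry Gm symbols, and the others include Ear1, Ear2 and Ear10 of the eosinophil ribonuclease family. How well reads map to this stretch was not tested.

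Of all 20665 autosomal protein-coding genes, 2069 had a shared site within 1 kb of an end (10.0%), and 8201 had any WT CTCF peak there (39.7%). Gene lists are set beside these shares as counts. Clustered protocadherins, cell-surface adhesion proteins whose promoters are known to bind CTCF, had a shared site at 32 of 57 genes (56.1%, 42.4 to 69.3), made by 20 different sites, and any WT CTCF peak at 55. At Pcdhac1 on chromosome 18, the CTCF fold was 56.7 in C59 and 31.4 in WT and the Smc3 fold 10.7 in C59 and 8.99 in WT. Its CTCF pileup was 258 in C59 and 249 in WT, on a background of 3.56 in C59 and 6.96 in WT. Cytoplasmic ribosomal protein genes had 16 of 77 (20.8%, 12.4 to 31.5) and any WT CTCF peak at 46 of 77 (59.7%). Rpl22 had CTCF folds of 63.8 in C59 and 37.3 in WT and Smc3 folds of 12.1 in C59 and 14.1 in WT. Its CTCF pileup was 318 in C59 and 336 in WT, on a background of 4.00 in C59 and 8.04 in WT. Imprinted genes had 6 of 29 (20.7%, 7.99 to 39.7), namely Gnas, Kcnk9, Magel2, Mest, Mirg and Peg13, some of which are noncoding. At Kcnk9, a potassium channel gene, the CTCF fold was 47.8 in C59 and 25.3 in WT and the Smc3 fold 15.9 in C59 and 14.8 in WT, on a CTCF background of 3.56 in C59 and 7.83 in WT. The protocadherin and ribosomal protein intervals lay above the share of all genes, and genes of a cluster share sites.

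Counts were small for cell cycle, lineage and Hox genes. Cell cycle genes had 5 of 24 (20.8%, 7.13 to 42.2), namely Ccna2, Cdkn2b, Mycl, Mycn and Trp53. At Mycl, a Myc family factor, the CTCF fold was 41.7 in C59 and 33.6 in WT, and the Smc3 fold 15.2 in C59 and 24.8 in WT. Lineage genes had 5 of 28 (17.9%, 6.06 to 36.9), namely Gata6, Mesp1, Myod1, Nes and Olig2. At Olig2, an oligodendrocyte and motor neuron factor, the CTCF fold was 43.6 in C59 and 40.7 in WT, and the Smc3 fold 11.9 in C59 and 19.5 in WT. Hox genes, which set position along the body axis, had 5 of 39 (12.8%, 4.30 to 27.4) from 4 sites, with Hoxc5 at CTCF folds of 42.9 in C59 and 36.0 in WT and Smc3 folds of 13.8 in C59 and 18.7 in WT. The intervals of these 3 lists include the 10.0% of all genes.

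Pluripotency genes had 1 of 23 (4.35%, 0.110 to 21.9), which was Tdgf1, a coreceptor of Nodal signals. Its CTCF fold was 9.62 in C59 and 9.62 in WT, and its Smc3 fold 3.60 in C59 and 3.89 in WT, below the shared medians in all 4 lists. Genes of CTCF, cohesin and their regulators had 0 of 19 (0 to 17.6%). Any WT CTCF peak was found at an end of 10 of these 19 genes and of 12 of the 23 pluripotency genes. Zfp zinc finger genes had 26 of 360 (7.22%, 4.77 to 10.4) and olfactory receptor genes 6 of 1100 (0.545%, 0.200 to 1.18), where any WT CTCF peak was found at 43. The olfactory interval lay below the 10.0% of all genes. The intervals of the pluripotency list, of the list of CTCF, cohesin and regulators, and of the Zfp list include it.

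Near the study's own proteins and the core pluripotency factors, shared sites stood outside the 1 kb windows. The nearest shared site was 2.99 kb from Ctcf (chromosome 8), with a CTCF fold of 39.1 in C59 and 29.4 in WT and an Smc3 fold of 6.98 in C59 and 9.30 in WT. It was 3.10 kb from Smc3, with a CTCF fold of 42.6 in C59 and 26.6 in WT, and 26.8 kb from Rad21, with a CTCF fold of 14.6 in C59 and 13.2 in WT. At Sox2 it was 2.11 kb away, with a CTCF fold of 35.6 in C59 and 18.9 in WT, and at Nanog 2.67 kb away, with 6.96 in C59 and 7.30 in WT. At Pou5f1 and Myc the WT CTCF summit of a shared site lay inside the gene. Within 100 kb there were 12 shared sites around Nanog, 9 around Pou5f1, 7 around Ctcf, 7 around H19, 5 around Smc3, 4 around Sox2, 3 around Rad21 and 2 around Myc. Nanog thus had the most shared sites of these genes, although its nearest one was weak for a shared site in both CTCF lists.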

How the data were processed

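ChIP-seq peak lists of CTCF and Smc3 in C59 and WT cells (4 of 8 libraries) were used. Input and control IgG libraries were not used here. Per the submitters' processing notes, tools included MACS2 2.1.0.20140616 and Bowtie 0.12.8, along with deepTools 2.4.1, FastQC 0.10.1 and CASAVA, and the build was mm10. The control, threshold and duplicate filter of peak calling are not given in the sources used here. All lists have 10 columns without a header. The pileup signal, the p-value, the q-value (linear) and the fold enrichment, a ratio, of each peak are the authors' deposited values, and scaling may differ between lists. Depth is unknown.

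The implied background of a peak is its pileup with 1 added, over its fold, less 1. Of several overlapping partners, the one of highest fold was taken. Deciles of fold or pileup were taken over autosomal WT CTCF peaks. Intervals are exact Clopper-Pearson intervals at 95%, or binomial intervals of a median. No test was made, as each line and antibody had 1 library. Genes and promoters came from RefSeq tables of GRCm38.p6. No genome sequence was used.

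The sites, gene lists and rules were chosen with earlier results of these data known. Named sites are the 5 of best worst rank, those whose Smc3 rank differs most between lines (3 each way, not all described), those at the longest gap and densest Mb, up to 2 genes a list (not all described), and 9 fixed genes, of which Smc1a is not on an autosome. A list of clustered histone genes matched no symbol. Scripts were tested on simulated peaks. Alternatives covered overlap, q-value, anchoring list, equal list lengths, chromosomes, gene window and motif. Python 3.11.15, numpy 2.4.6, pandas 2.3.3, scipy 1.17.1 and matplotlib 3.10.9 were used.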

Additional observations from a re-analysis of the deposited data

How the results depend on the processing

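The number of shared sites was 9409 when overlaps had to cover 50% of both peaks and 15108 with −log10 q of at least 10, and lay within 1.5 times the reported number in the other 6 alternatives. The gene-end share was 6.21% with the 50% overlap and 8.80% with lists of equal length, and by construction it was 4.84% in a window of 500 bp, 16.6% in 2500 bp and 42.0% in 10000 bp. The C59 distance from Smc3 to CTCF was 23 bp with the 50% overlap, 23 bp with −log10 q of at least 5, 22 bp with −log10 q of at least 10 and 22.5 bp with equal lengths. The motif share was 49.6% with the looser motif, which by construction takes more letters. A window of 200 bp was fully covered at only 3 shared sites. Of 62 alternative values, 43 stayed within the interval or the 1.5-fold range, 19 moved and 0 changed direction. Most of these values are counts, unsigned distances or shares of a single group, which have no direction to change. Differences between kinds of site were not among them. Apart from the looser motif and the windows, the cause of the moves was not tested. Deciles by pileup, likeness by pileup and without chromosomes 1, 8 and 11, and RefSeq start sites were chosen after seeing the data. No paired analysis was possible because each line and antibody had 1 library, and no replicate could be left out. Unknown depth and the authors' threshold limit what the absence of a peak can show.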
